A study of Mus musculus with 9 samples.

Results

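Chemokines are small secreted or membrane-bound proteins that direct the migration of leukocytes through G protein-coupled receptors. This section describes 10 of them that act in the gut mucosa, taken as the rows of the deposited expression table whose gene name was Cxcl9, Cxcl10, Cxcl12, Cxcl16, Cx3cl1, Ccl5, Ccl6, Ccl8, Ccl20 or Ccl28. Each name matched 1 row of the 54532 genes in the table. All 10 passed the filter on low values that left 14683 genes for testing, namely 0.5 FPKM or more (reads scaled to gene length and library size) as the mean of the 9 libraries.

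RNA came from the duodenum of mice in 3 groups of 3 libraries. The control group was wild type and received gluten in a stimulation that was not enhanced. The CeD group was a delayed-type hypersensitivity (DTH) model of celiac disease, an immune disorder of the small intestine driven by gluten, and received the enhanced gluten stimulation. The CeD+GR group was the same model with the same enhanced stimulation, given composite nanoparticles of gliadin (a wheat gluten protein) and rapamycin (an inhibitor of the mTOR kinase) beforehand. Gluten was thus common to all groups, while control and CeD differed in both the model and the strength of the stimulation, which cannot be told apart. The labels used here give no strain, age or sex, and do not say whether the libraries of a group came from separate mice. The p-values therefore refer to the variation among these libraries alone, and part of it may be technical. The comparisons ask how the duodenal transcriptome differed in the model, and whether it differed in animals that had received the nanoparticles.

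Chemokines of the mucosa fall into several classes. Inflammatory ones are switched on in immune, epithelial and stromal cells by interferons and NF-kB signals, whereas homeostatic ones are made steadily by stroma or epithelium and set where lymphocytes and plasma cells reside. In celiac disease the epithelium is infiltrated by intraepithelial T cells, whose positioning depends on such signals. Inducible chemokine promoters are bound by interferon-activated factors, NF-kB and AP-1.

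The 250 bases before the annotated transcript start were available from RefSeq (GRCm38.p6, the mm10 assembly that the files also use) for 8 of the 10 members, Cxcl9, Cxcl10, Cxcl12, Cx3cl1, Ccl6, Ccl8, Ccl20 and Ccl28. For Cx3cl1 that start lies within the gene as the deposited table places it, so 171 of its 250 bases are inside the gene and the stretch before the gene was mostly not searched, while the other 7 windows end where the gene begins. All 8 windows were searched on both strands for an interferon-stimulated response element (GAAANNGAAA), a gamma-activated site (TTCNNNGAA), an AP-1 site (TGANTCA) and the NF-kB site. Cxcl10 and Ccl20 were the 2 that held a match, and they are printed here 5′ to 3′ on the strand of the gene, with the matches in capitals. Cxcl10 lies on the minus strand of chromosome 5 and the window is chr5:92348890-92349139. Ccl20 lies on the plus strand of chromosome 1 and the window is chr1:83116516-83116765.
Cxcl10: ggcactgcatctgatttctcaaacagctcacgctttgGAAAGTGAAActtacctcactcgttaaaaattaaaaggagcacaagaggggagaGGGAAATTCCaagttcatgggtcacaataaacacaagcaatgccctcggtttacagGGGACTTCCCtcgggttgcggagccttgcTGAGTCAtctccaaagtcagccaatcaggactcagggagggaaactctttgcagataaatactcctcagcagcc
Ccl20: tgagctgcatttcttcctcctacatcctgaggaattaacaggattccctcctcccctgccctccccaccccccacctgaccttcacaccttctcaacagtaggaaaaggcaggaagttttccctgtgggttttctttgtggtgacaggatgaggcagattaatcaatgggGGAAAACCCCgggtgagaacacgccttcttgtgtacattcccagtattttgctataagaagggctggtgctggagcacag
In Cxcl10 the capitals mark, in order, an interferon-stimulated response element 213 to 204 bases before the start, NF-kB matches at 159 to 150 and at 103 to 94 bases, and an AP-1 match at 74 to 68 bases. In Ccl20 they mark 1 NF-kB match on the opposite strand, 80 to 71 bases before the start. Over all 32851 mouse promoters of the same length, 2.98% held the interferon-stimulated response element, 7.02% the gamma-activated site, 6.75% the AP-1 site and 3.90% the NF-kB site. The AP-1 match reads on both strands, and no match overlaps one of another motif. A match is a description of the letters, and binding was not measured here.

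The libraries held 15373260 to 16852104 reads in genes, and markers of intestinal absorptive cells were present in all of them (10 of 10 enterocyte markers above 0, summed 9301 to 33869 FPKM), as the duodenum label gives. Several libraries stood apart. The replicate 1 library of each group had summed Paneth cell markers of 1050 to 2113 FPKM against 74.3 to 176 in the other 6. CeD 1 held exocrine pancreas transcripts (3593 FPKM summed over 11 markers, against 3.18 to 51.5 elsewhere), and CeD+GR 3 held gastric and Brunner gland transcripts (121321 FPKM summed over 6 markers, at most 46.6 elsewhere). CeD+GR 2 had the highest summed adipocyte markers, 270 FPKM against 45.1 to 87.4. Of these 6 markers, 2 were above 0 in every library, and Adipoq, Plin1, Lep and Retn were at 0 in at least 1. Cidec alone averaged 61.1 FPKM in control and 56.4 in CeD, most of the sum there. In bulk tissue fewer cells of a type and less RNA per cell cannot be told apart.

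Levels per gene length spanned from 51.3 FPKM for Ccl5 to 1.18 FPKM for Ccl8, as means over the 9 libraries. Between them came Cx3cl1 at 29.8, Ccl6 at 25.8, Cxcl16 at 12.8, Ccl20 at 6.83, Ccl28 at 6.59, Cxcl10 at 6.16, Cxcl9 at 3.12 and Cxcl12 at 1.67 FPKM. Ccl5 was above Cx3cl1 in 9 of 9 libraries and Ccl6 above Cxcl16 in 9 of 9. Cxcl16 was above Ccl20 in 8 of 9. The order of Ccl20, Ccl28 and Cxcl10 was not stable, since Ccl20 was above Ccl28 in 3 of 9 libraries and Ccl28 above Cxcl10 in 5 of 9. Other neighbours changed places too. Cx3cl1 was above Ccl6 in 6 of 9 libraries and Cxcl10 above Cxcl9 in 7 of 9. Cxcl9 was above Cxcl12 in 6 of 9 and Cxcl12 above Ccl8 in 6 of 9. The ranges over the 9 libraries overlapped for every pair of neighbours in this order.

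**Figure D1:**
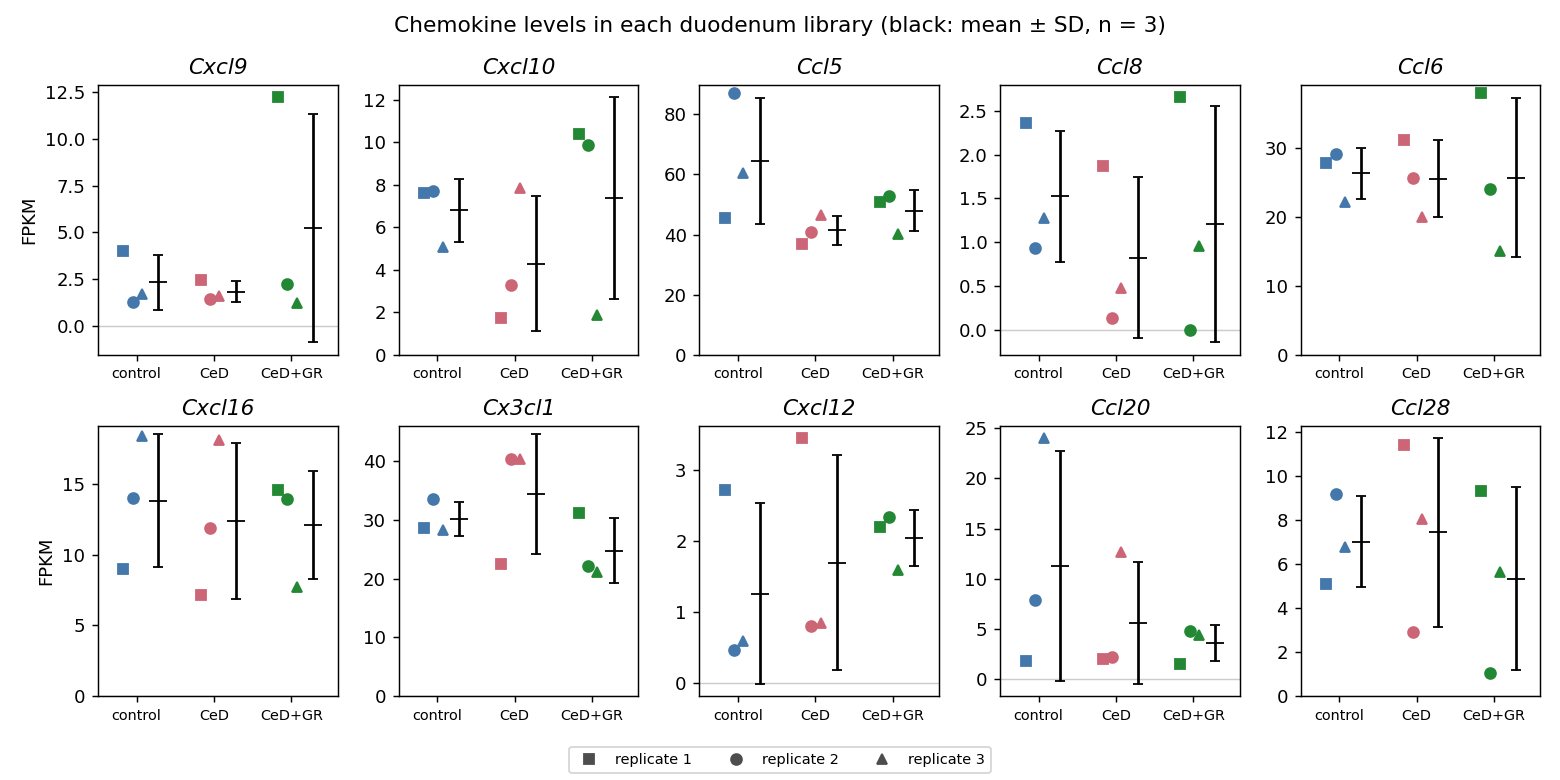
FPKM (y axis, linear) of each chemokine in the control, CeD and CeD+GR groups (x axis), 1 point per library with the symbol giving the replicate number, and in black the mean ± SD of the 3 libraries. The points of the 3 groups overlap in every panel, and of the 9 members above 0 in every library Ccl20, Ccl28 and Cxcl9 spread most, with highest-to-lowest ratios of 15.5, 11 and 10.2.

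The members also differed in how much libraries of 1 group varied. The residual SD within groups was 1.32 on the log2(FPKM + 0.5) scale for Ccl20, larger than in 95.3% of the tested genes, and 0.93 to 1.0 for Ccl28, Ccl8, Cxcl9 and Cxcl10. It was 0.78 for Cxcl12 and 0.55 for Cxcl16. Ccl6 at 0.44 lay at the median of all tested genes (0.44), while Cx3cl1 (0.34) and Ccl5 (0.31) varied less than the median gene. The 4 with the highest means had the 4 smallest residual SDs. Below them the order did not hold, since Ccl20 had a higher mean than Cxcl12 but an SD of 1.32 against 0.78.

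Cxcl9 and Cxcl10 are interferon-induced ligands of Cxcr3, the receptor of activated T cells. Cxcl9 (ENSMUSG00000029417, chr5:92321347-92328079, minus strand) was at 3.99, 1.27 and 1.71 FPKM in control 1, 2 and 3, at 2.47, 1.43 and 1.57 in CeD and at 12.2, 2.21 and 1.2 in CeD+GR. Its highest value in each group was in replicate 1, and CeD+GR 1 stood above all others. The neighbouring Cxcl10 (ENSMUSG00000034855, chr5:92346638-92348889, minus strand) was at 7.63, 7.70 and 5.08 FPKM in control, 1.72, 3.30 and 7.87 in CeD and 10.4, 9.90 and 1.87 in CeD+GR. Its lowest values, 1.72 and 1.87, fell in CeD 1 and CeD+GR 3, the libraries with pancreatic and gastric transcripts. Their part in that was not tested. Cxcl10 overlaps Art3 on the other strand (mean 2.55 FPKM), and since the strand setting of the counting is not given in the sources used here, reads of the pair may be mixed.

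Ccl5, also called RANTES, is a T cell and monocyte attractant that cytotoxic and memory T cells make in quantity. The gene (ENSMUSG00000035042, chr11:83525778-83530518, minus strand) measured 45.7, 87.3 and 60.4 FPKM in control 1, 2 and 3, 36.9, 40.9 and 46.5 in CeD, and 50.8, 52.8 and 40.1 in CeD+GR. CeD 1 and CeD 2 were below every control library, but CeD 3 at 46.5, the median of the 9 libraries, was above control 1 at 45.7, so the groups overlapped. Matched by replicate number, Ccl5 was lower in CeD in 3 of 3 pairs. The labels do not say that the numbers pair the libraries. Control 2 deviated more like CeD 3 (correlation 0.46) than like CeD 2 (0.37), so the matching of replicates 2 and 3 is arbitrary. Ccl8, with 91 reads in all, and Cxcl16 were also lower in CeD in 3 of 3 pairs of the same number. Cxcl12 was higher in 3 of 3, while the other 6 members were mixed. The share of all tested genes with 1 direction in 3 of 3 pairs was not computed, so these counts set no member apart. The summed markers of cytotoxic lymphocytes (7 of 11 above 0 in every library, with Klrb1c, Ncr1, Eomes and Tbx21 at 0 in at least 1 library) were 213 to 372 FPKM in control, 119 to 159 in CeD, and 224, 249 and 84.6 in CeD+GR 1, 2 and 3. The summed T cell markers (12 of 12 above 0 in every library) were 48.0 to 58.3 FPKM in control, 28.7 to 35.3 in CeD, and 45.2, 72.0 and 24.4 in CeD+GR. Both sums were thus lower in every CeD library than in every control library, and lowest in CeD+GR 3. Of all tested genes, taken singly, 4.69% had CeD and control groups without overlap, counting both directions. The share for such sums was not computed. Gzma alone averaged 220 FPKM in control and 106 in CeD, most of the cytotoxic sum there. The part of both sums in the level of Ccl5 was not tested.

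Ccl8, a monocyte chemoattractant made by tissue macrophages whose receptor in mice is Ccr8, was the least abundant member (ENSMUSG00000009185, chr11:82115185-82116799, plus strand). It rested on 91 reads in all, and measured 2.36, 0.936 and 1.28 FPKM in control 1, 2 and 3, 1.87, 0.136 and 0.475 in CeD, and 2.65, 0 and 0.958 in CeD+GR. CeD+GR 2 had 0 reads, which allows up to 3 reads or 0.373 FPKM by counting error alone. In every group replicate 1 was highest. Ccl6, a macrophage chemokine of rodents that binds Ccr1, was far more abundant (ENSMUSG00000018927, chr11:83587882-83593087, minus strand). It measured 27.7, 29.1 and 22.1 FPKM in control, 31.0, 25.6 and 19.9 in CeD, and 37.9, 24.0 and 15.0 in CeD+GR, and its group means were nearly equal, 26.3 ± 3.70, 25.5 ± 5.57 and 25.6 ± 11.5 FPKM (SD, n = 3). It overlaps E230016K23Rik on the other strand (mean 0.0546 FPKM). Summed macrophage and dendritic cell markers (14 of 14 above 0 in every library) were highest in replicate 1 of each group, at 176, 133 and 201 FPKM, against 64.5 to 107 in the other 6, and their part in Cxcl9, Ccl8 and Ccl6 was not tested.

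Cxcl16 and Cx3cl1 are the transmembrane chemokines, which tether cells that carry Cxcr6 and Cx3cr1 and can be shed by proteases. Cxcl16 (ENSMUSG00000018920, chr11:70453983-70459984, minus strand) measured 9.02, 14.0 and 18.4 FPKM in control 1, 2 and 3, 7.15, 11.9 and 18.1 in CeD, and 14.6, 14.0 and 7.69 in CeD+GR. Its 3 lowest libraries, CeD 1, CeD+GR 3 and control 1, were the 3 with the lowest summed enterocyte markers (12760, 9301 and 16304 FPKM, against 26214 to 33869 in the other 6). Their part in the level of Cxcl16 was not tested. Cxcl16 overlaps Zmynd15 on the other strand (mean 0.895 FPKM). Cx3cl1, fractalkine (ENSMUSG00000031778, chr8:94772009-94782427, plus strand), was the steadiest member by range, at 28.6, 33.5 and 28.3 FPKM in control, 22.5, 40.4 and 40.4 in CeD, and 31.1, 22.1 and 21.1 in CeD+GR. CeD 2 and CeD 3 were above all other libraries, and CeD 1 at 22.5 was below all controls.

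Cxcl12, the ligand of Cxcr4 that stroma and vessels make steadily, was low per gene length (ENSMUSG00000061353, chr6:117168535-117181367, plus strand). Its gene length of 8176 bases was the longest of the members, and its 2046 reads in all exceeded the 1425 of Ccl20. Cxcl12 measured 2.73, 0.468 and 0.587 FPKM in control 1, 2 and 3, 3.45, 0.798 and 0.839 in CeD, and 2.20, 2.34 and 1.59 in CeD+GR. Control 2 and 3 and CeD 2 and 3 were at or below 0.839, and the other 5 libraries at or above 1.59. The summed endothelial markers divided the libraries in the same way, at 9.17 to 14.4 FPKM in those 4 and 23.5 to 31.9 in the other 5, with 8 of 8 markers above 0 in all libraries. Summed fibroblast markers were 31.0 to 69.2 FPKM in the 4 and 52.8 to 97.8 in the 5. The part of these cells in the level of Cxcl12 was not tested.

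Ccl20 and Ccl28 are epithelial ligands. Ccl20 draws Ccr6-bearing lymphocytes and dendritic cells to follicles and is an NF-kB target, and Ccl28 draws IgA plasma cells that carry Ccr10. Ccl20 (ENSMUSG00000026166, chr1:83116766-83119167, plus strand) measured 1.86, 7.93 and 24.0 FPKM in control 1, 2 and 3, 2.01, 2.25 and 12.6 in CeD, and 1.54, 4.83 and 4.39 in CeD+GR. Control 3 and CeD 3 were highest, and replicate 1 was lowest in each group. The same libraries, control 3 and CeD 3, had the highest Nfkbia, the NF-kB inhibitor that NF-kB itself induces, at 344 and 220 FPKM against 41.9 to 96.6 in the other 7. The Pearson correlation of Ccl20 with Nfkbia on the log2(FPKM + 0.5) scale was 0.88 over the 9 libraries. It was 0.51 without control 3 and CeD 3, and the part of Nfkbia in Ccl20 was not tested. Ccl28 (ENSMUSG00000074715, chr13:119623819-119654359, plus strand) measured 5.07, 9.16 and 6.78 FPKM in control, 11.4, 2.88 and 8.04 in CeD, and 9.32, 1.04 and 5.62 in CeD+GR. Its lowest library, CeD+GR 2, was also the one with the most adipocyte marker signal, and the part of that in Ccl28 was not tested.

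**Figure D2:**
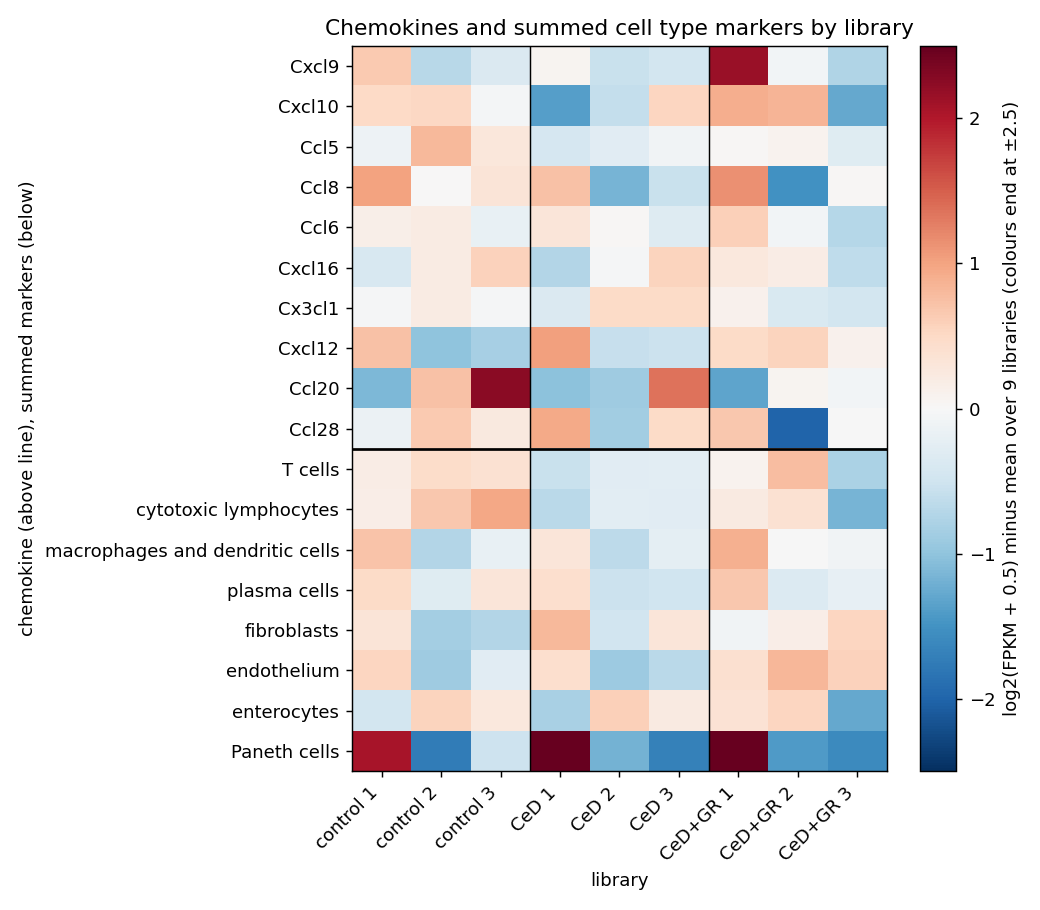
log2(FPKM + 0.5) minus its mean over the 9 libraries (colour, ending at ±2.5) for the 10 chemokines above the line and summed markers of 8 cell types below it, 1 column per library and vertical lines between groups. Cxcl12 is low in control 2, control 3, CeD 2 and CeD 3, as are the endothelial markers, and Cxcl9 and Ccl8 are highest in replicate 1 of each group.

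**Figure D3:**
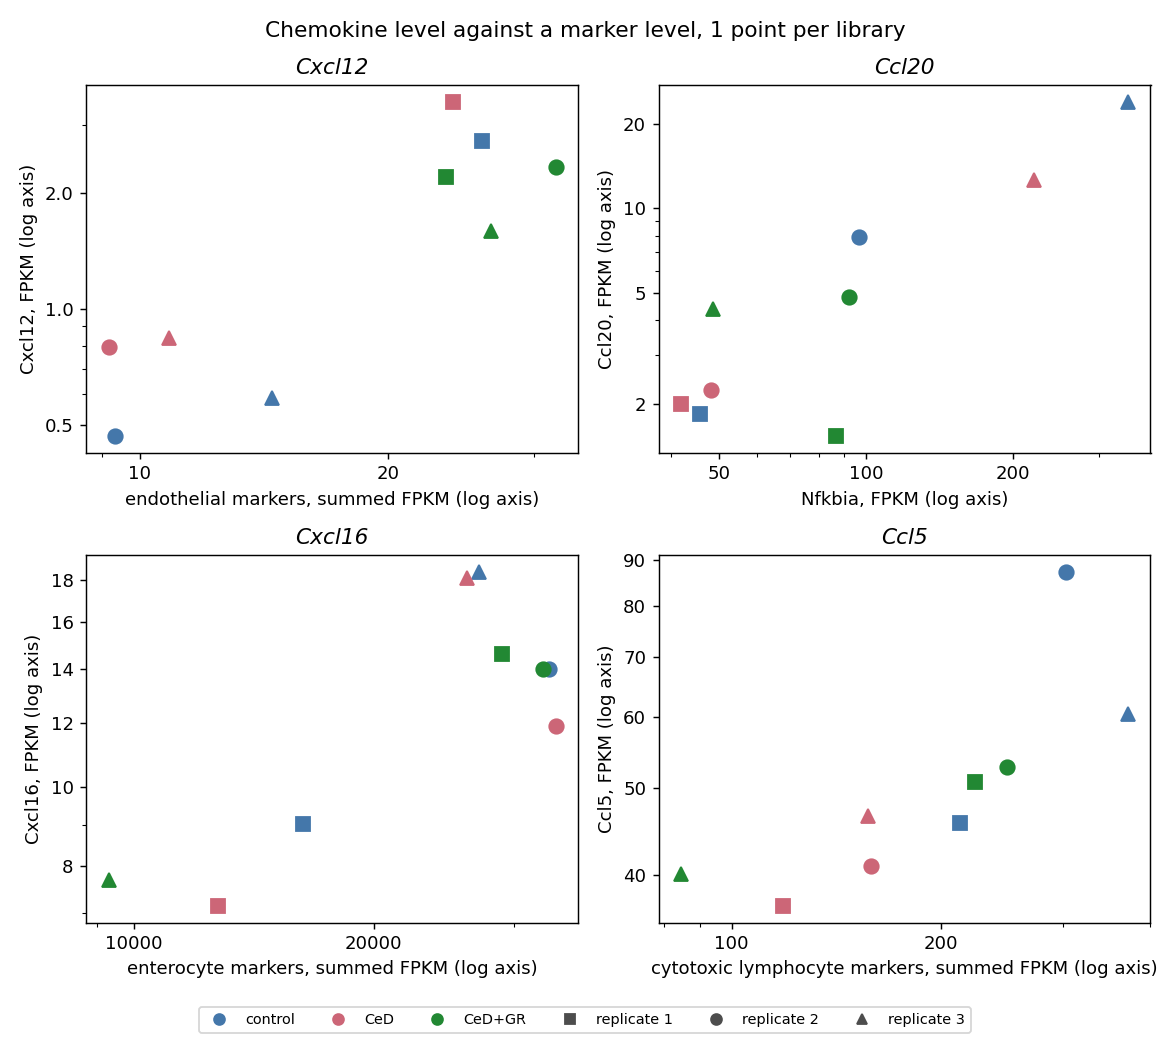
FPKM of Cxcl12, Ccl20, Cxcl16 and Ccl5 (y axes, log) against summed endothelial markers, Nfkbia, summed enterocyte markers and summed cytotoxic lymphocyte markers (x axes, log), 1 point per library with colour for the group and symbol for the replicate. Cxcl12 falls into 4 low and 5 high libraries, and Ccl20 is highest in the 2 libraries with the highest Nfkbia, 344 and 220 FPKM.

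In CeD against control, none of the 10 chemokines passed the threshold. No gene of the 14683 did (limma with Benjamini-Hochberg adjustment, adjusted p = 1 for all 10 members, 0% of all genes called), and 0 members had an unadjusted p under 0.05. Over all genes 40 higher and 63 lower ones had an unadjusted p under 0.05, and limma-voom on reads recovered from the table called 0 and gave 25 and 37. Of the members, 2 had positive and 8 had negative differences, with a median of -0.19 on the log2(FPKM + 0.5) scale against 0.00 over all genes. The largest relative to its error was Ccl5, with -0.59 (SE 0.27, 95% interval -1.20 to 0.03, unadjusted p = 0.0589 by limma and 0.040 by limma-voom). It was at -0.34 without control 2 and at -0.81 without control 1 (limma unadjusted p = 0.233 and 0.0161), and was called in neither. Cxcl10 was at -0.80 (interval -2.27 to 0.67) and Ccl20 at -0.81 (-2.87 to 1.25), with intervals that reach far on both sides of 0. Ccl8 was at -0.77 (-2.38 to 0.83), Cxcl12 at 0.34 (-0.93 to 1.61), Cx3cl1 at 0.14 (-0.49 to 0.78), and Cxcl16 and Cxcl9 both at -0.19. Ccl6 and Ccl28 were both at -0.06. The groups of no member were without overlap, whereas 4.69% of all tested genes had groups that did not overlap. Leaving out 1 library turned the sign of 6 members. Cxcl9 was at 0.21 without control 1, Ccl20 at 0.01 without control 3 and Cxcl12 at -0.19 without CeD 1. Cxcl16 was at 0.04 without control 3 and at 0.14 without CeD 1, Ccl6 at 0.02 without control 2 and at 0.11 without CeD 3, and Ccl28 at 0.14 without control 2 and at 0.46 without CeD 2.

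In CeD+GR against CeD, the comparison of nanoparticle-treated with untreated model animals, none of the 10 passed (limma, adjusted p = 1 for each, 0% of all genes called, 0 members at an unadjusted p under 0.05 by limma or by limma-voom). Over all genes 167 higher and 258 lower ones had an unadjusted p under 0.05 by limma, and 69 and 299 by limma-voom, which called 0. Of the members, 6 had positive and 4 had negative differences, with a median of 0.10 against 0.01 over all genes. The Cxcr3 ligands had the highest positive ones, Cxcl9 at 0.77 (interval -0.80 to 2.33) and Cxcl10 at 0.64 (-0.83 to 2.11). Cxcl9 rested on CeD+GR 1 and was at -0.09 without it. Cxcl10 was at 0.19 without CeD 1 and at 1.36 without CeD+GR 3 (limma unadjusted p = 0.0286, adjusted p = 1). Cx3cl1 had the largest difference relative to its error, -0.44 (SE 0.28, interval -1.07 to 0.19, unadjusted p = 0.151). It was at -0.71 without CeD 1 and at -0.30 without CeD 2 (limma unadjusted p = 0.0212 and 0.372), and adjusted p was between 0.672 and 1 over the alternatives. Cxcl12 was at 0.41, Ccl8 at 0.22, Ccl5 at 0.20 and Cxcl16 at 0.01, while Ccl28 was at -0.63, Ccl20 at -0.26 and Ccl6 at -0.07. The groups of no member were without overlap, against 6.05% of all tested genes. The sign also turned for Ccl20 (0.52 without CeD 3 and 0.18 without CeD+GR 1), Ccl28 (0.15 without CeD+GR 2), Ccl8 (-0.20 without CeD 2 and -0.41 without CeD+GR 1) and Ccl6 (0.08 without CeD 1 and 0.26 without CeD+GR 3). Cxcl16 was at -0.32 without CeD 1, at -0.15 without CeD+GR 1 and at -0.12 without CeD+GR 2.

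In CeD+GR against control, none of the 10 passed either (limma, adjusted p = 1 for each, 0% of all genes called, 0 members at an unadjusted p under 0.05 by limma or limma-voom). Over all genes 193 higher and 207 lower ones had an unadjusted p under 0.05 by limma, and 110 and 203 by limma-voom, which called 0. Of the members, 2 were positive and 8 negative, with a median of -0.24 against -0.00 over all genes. Since this comparison shares its libraries with the other 2, its differences are their sum and add no separate evidence. Ccl20 was at -1.06 (interval -3.12 to 1.0), Ccl28 at -0.70 (-2.27 to 0.87), Ccl8 at -0.56 and Ccl5 at -0.38 (-1.0 to 0.23). The difference of Ccl20 was at -0.24 without control 3 and at -1.93 without control 1 (limma unadjusted p = 0.784 and 0.0472). That of Ccl5 was at -0.14 without control 2. Cx3cl1 was at -0.29, Cxcl16 at -0.18, Cxcl10 at -0.16 and Ccl6 at -0.12, and the positive ones were Cxcl12 at 0.75 (-0.52 to 2.02) and Cxcl9 at 0.58. Cxcl12 was at 0.43 without control 2 and at 1.30 without control 1 (limma unadjusted p = 0.505 and 0.0320). Neither Ccl20 nor Cxcl12 was called in these refits. Groups without overlap made up 5.58% of all tested genes and 0 of the members. Each of the 30 differences of the members in the 3 comparisons moved by over 1.5 times, or turned, when some 1 library was left out. Here signs turned for Cxcl9 (-0.28 without CeD+GR 1), Ccl28 (0.08) and Ccl8 (0.14) without CeD+GR 2, Ccl6 (0.20) and Cxcl10 (0.56) without CeD+GR 3, and Cxcl16 (0.05 without control 3, 0.10 without CeD+GR 3).

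**Figure D4:**
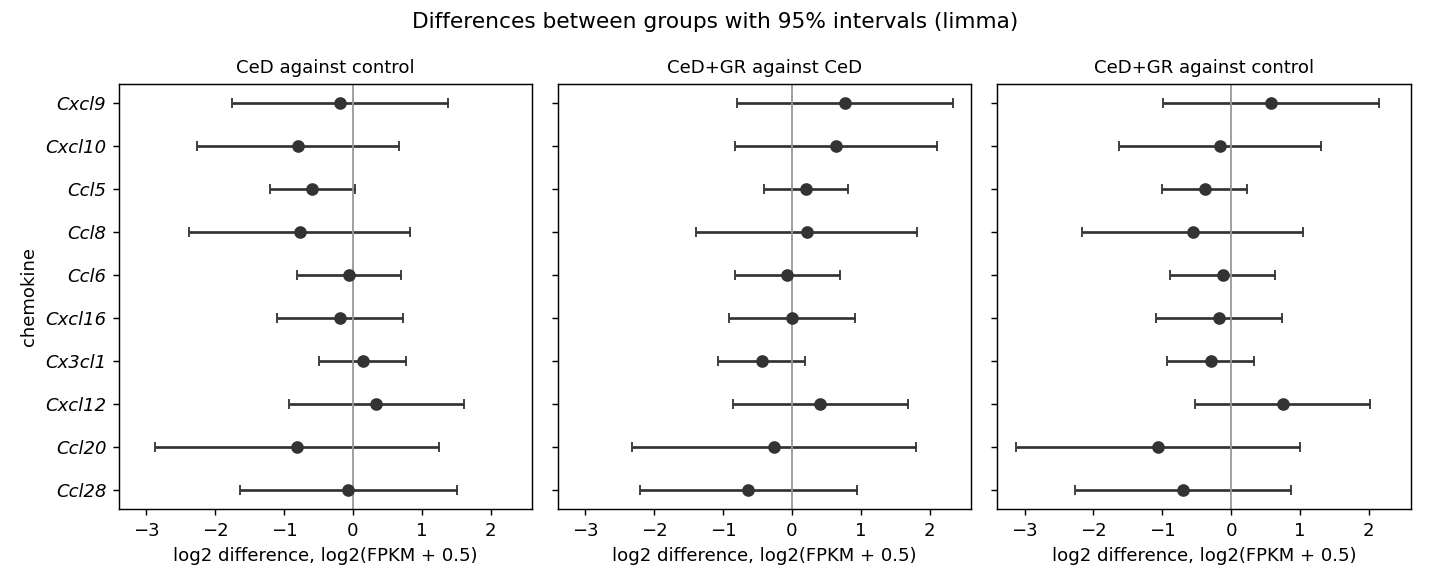
Log2 differences between groups on the log2(FPKM + 0.5) scale (x axis) with 95% intervals from limma for each chemokine (y axis), 1 panel per comparison. All 30 intervals include 0, and those of Ccl20 are the widest.

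The receptors of these ligands were less abundant per length than most of the ligands. Of 18 chemokine receptors listed, 9 passed the filter on low values, and the most abundant by mean FPKM were Cxcr4 (2.45), Cxcr6 (2.27), Cx3cr1 (2.26), Ccr1 (1.48), Cxcr3 (1.31) and Ccr10 (1.18). Ccr7 was at 0.845 and Ccr9 at 0.589 FPKM. Ccr6 and Ccr8, the receptors of Ccl20 and Ccl8, had 39 and 9 reads over all libraries and were not tested. Of the 9 tested, 0 were called in any comparison (limma, 0 with an unadjusted p under 0.05), with positive differences for 3 of them between CeD and control, for 6 between CeD+GR and CeD and for 5 between CeD+GR and control. Cxcr4, the receptor of Cxcl12, was the 1 whose groups did not overlap in a comparison, at 2.68, 3.65 and 3.55 FPKM in CeD+GR 1, 2 and 3 against 2.05, 1.0 and 2.45 in CeD, and 2.92, 1.25 and 2.49 in control. Its difference of CeD+GR from CeD was 0.75 (SE 0.34, interval -0.03 to 1.53, limma adjusted p = 1), and 6.05% of all tested genes had groups that did not overlap there. It was at 0.46 without CeD 2 and at 0.95 without CeD 3. Ccr10 was lowest, at 0.257 FPKM or 7 reads, in CeD+GR 2, where its ligand Ccl28 was also lowest. The Pearson correlation of Ccl28 with Ccr10 was 0.77 over the 9 libraries and 0.35 without CeD+GR 2 and CeD 1.

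Ackr3, an atypical receptor that scavenges Cxcl12, measured 1.48, 0.224 and 0.637 FPKM in control 1, 2 and 3, 1.84, 0.684 and 1.74 in CeD, and 1.81, 2.22 and 2.30 in CeD+GR. CeD+GR lay above control in every library, with a difference of 1.15 (SE 0.41, interval 0.21 to 2.08, limma unadjusted p = 0.0218, adjusted p = 1), in a comparison where 5.58% of all genes had no overlap. It was 1 of 4 tested of 5 listed atypical receptors, and of these 0 were called. The summed endothelial markers were 9.33 to 25.9 FPKM in control and 23.5 to 31.9 in CeD+GR, and their part in this difference was not tested.

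Chemokines outside the 10 included some that were as abundant. Of 27 listed, 15 passed the filter and 0 were called in any comparison (limma, 0 with an unadjusted p under 0.05). Ccl25, the ligand of Ccr9 that small-intestinal epithelium makes, had the highest mean, 76.6 FPKM, above that of Ccl5. The control mean was 93.3 ± 39.2, the CeD mean 76.7 ± 27.2 and the CeD+GR mean 59.9 ± 23.2 FPKM (SD, n = 3), and these overlapped. The next were Ccl11 (8.14), Cxcl14 (7.98), Ccl9 (2.98), Cxcl11 (2.62) and Cxcl13 (2.30). Cxcl11, the third interferon-induced ligand of Cxcr3, had a control mean of 2.45 ± 1.21, a CeD mean of 2.74 ± 2.35 and a CeD+GR mean of 2.66 ± 3.29 FPKM (SD, n = 3).

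Genes that process or induce chemokines were also compared. The sheddases Adam10 and Adam17, which release Cxcl16 and Cx3cl1 from the membrane, were at 17.3 to 27.7 and 3.09 to 5.04 FPKM, and Dpp4, the peptidase that trims Cxcl9, Cxcl10, Cxcl12 and Ccl5, ranged from 14.9 FPKM in CeD+GR 3 to 220 in CeD 2. Among 12 inducers, Ifng, Tnf and Il17a were too low to test, with 11, 80 and 1 reads in all. Irf1, an interferon-induced transcription factor, was at 14.3 to 58.7 FPKM, with the lowest value in CeD+GR 3. None of the 3 processing genes and 9 tested inducers was called in any comparison (limma, 0 with an unadjusted p under 0.05).

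Among 10950 protein-coding genes averaging 1 FPKM or more, those whose log2(FPKM + 0.5) followed each member most closely over the 9 libraries were found by Pearson's r, as a description chosen as the maximum of many. Cxcl12 was most like Cdh5 (0.98), the cadherin of endothelial junctions and 1 of the endothelial markers above, and Mmrn2 (0.98), an endothelial matrix protein. Cxcl9 was most like Serpina3f (0.97) and Cgn (0.96), and Cxcl10 most like Amigo2 (0.92) and Igtp (0.91), an interferon-inducible GTPase. For Cxcl16 they were Rdh16 (0.98) and Tmem252 (0.96), for Cx3cl1 Scrn2 (0.94) and Mfsd4b3 (0.91), and for Ccl5 Rwdd2a (0.95) and Lcmt1 (0.92). For Ccl6 they were Slbp (0.97) and Lclat1 (0.96), for Ccl8 Trmt5 (0.95) and Bid (0.95), and for Ccl20 Rab12 (0.95) and Oit1 (0.95). For Ccl28 they were C1qtnf2 (0.90) and AI597479 (0.90), and these r fell to 0.57 and 0.62 without CeD+GR 2 and CeD 1, so they rest on those libraries. The r of Cxcl10 with Amigo2 and Igtp were 0.90 and 0.76 without CeD 1 and CeD+GR 3, where Cxcl10 was lowest. The points share library and scaling, and no p is given for a maximum over so many genes.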

How the data were processed

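RNA was measured in 9 mouse duodenum libraries, grouped by the treatment in the labels. The libraries were directional and depleted of ribosomal RNA, per the labels' protocols. The values are FPKM per gene as deposited by the authors, in 1 table of 54532 genes. Tools listed in the submitters' processing notes are DESeq2 1.20.0, featureCounts 1.5.0-p3, HISAT2 2.0.5 and fastp, and the build is mm10, without roles. How FPKM was calculated, the gene annotation used and whether counting used strand: not given in the sources used here.

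Multiplied by gene length, 99.98% to 100% of the nonzero values were whole numbers of a fixed step in each library, to within 0.1 reads. The reads recovered in this way, 15373260 to 16852104 per library, gave the read numbers and a limma-voom fit as an alternative. The step sizes imply effective library sizes of 14410551 to 18206427, and mitochondrial transcripts took 4.15% to 10.2% of the reads. Counting intervals and floors cover counting error only.

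The comparisons used limma 3.58.1 (R 4.3.3) on log2(FPKM + 0.5), in 1 group-means model over 9 libraries with a mean-variance trend, for the 14683 genes that averaged 0.5 FPKM or more. Tests were two-sided, with Benjamini-Hochberg adjustment over all of them at 0.05. An exact permutation test of 3 against 3 cannot go below 0.1. The fit was tested on simulated data. The chemokines and lists were chosen with earlier results of these data known, so nothing is adjusted over a list alone. Named genes are the 10 members, the listed receptors, sheddases, peptidase and inducers, the 6 most abundant other chemokines, and the 2 protein-coding genes most like each member. Some listed genes are not reported here. Ackr3 was chosen after its values were seen. Same-numbered control and CeD libraries deviated together (correlations of at least 0.37), from the data and not from the labels, whereas replicate 3 of CeD+GR did not (at most -0.11). This was clearest for replicate 1 (0.71). Control 2 and CeD 3, of unlike number, correlated at 0.46, above the 0.37 and 0.41 of same-numbered replicates 2 and 3. The values thus do not establish pairing by number for these. Alternatives changed the pseudocount, filter, scaling, samples, trend, block and tool.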

Additional observations from a re-analysis of the deposited data

How the results depend on the processing

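Over 13 other settings and 9 left-out libraries, 0 of the 10 chemokines was called in any comparison, and the smallest adjusted p was 0.666. Of their 30 log2 differences, 19 turned sign under at least 1 alternative and 11 kept it. With the replicate block, 0 genes were called in each comparison and the differences were as without it, and it changed no call. The errors did change, with a median SE over all tested genes of 0.292 with the block and 0.348 without it. In CeD against control the smallest adjusted p over all genes was 0.236 with the block (limma). The limma unadjusted p of Ccl20 in CeD+GR against control went from 0.272 to 0.070. In CeD against control that of Ccl8 went from 0.304 to 0.067, while that of Cxcl10 rose from 0.248 to 0.292. Over all genes, CeD+GR against control had 0 to 1 genes called when 1 library was left out, the 1 being Gm22615 (-4.31, adjusted p = 0.0137) without control 1.

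Leaving out 1 library, differences of CeD against control ranged from -1.68 to 0.012 for Ccl20, -0.45 to 0.46 for Ccl28, -0.21 to 0.11 for Ccl6, -0.19 to 0.89 for Cxcl12, -0.50 to 0.14 for Cxcl16 and -0.47 to 0.21 for Cxcl9. Those of CeD+GR against CeD ranged from -0.68 to 0.52 for Ccl20, -1.19 to 0.15 for Ccl28, -0.39 to 0.26 for Ccl6, -0.41 to 0.92 for Ccl8, -0.32 to 0.32 for Cxcl16 and -0.089 to 1.37 for Cxcl9. Those of CeD+GR against control ranged from -1.26 to 0.083 for Ccl28, -0.45 to 0.20 for Ccl6, -1.18 to 0.14 for Ccl8, -0.53 to 0.56 for Cxcl10, -0.45 to 0.10 for Cxcl16 and -0.28 to 1.18 for Cxcl9.

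Other settings turned signs, and the cause was not tested. In CeD+GR against CeD, Cxcl16 was at -0.0076 with median-of-ratios rescaling, -0.038 with quantile normalization, -0.020 with limma-voom, -0.48 with replicates 2 and 3 only and -0.040 without CeD 1 and CeD+GR 3. There Ccl8 was at -0.094 with limma-voom, Cxcl10 at -0.18 with replicates 2 and 3 only and Ccl6 at 0.41 without CeD 1 and CeD+GR 3. In CeD against control, Ccl28 was at 0.0022 with quantile normalization, Cxcl9 at 0.014 with replicates 2 and 3 only, and Cxcl16 at 0.14 and Cxcl12 at -0.19 without CeD 1 and CeD+GR 3. Without these 2 libraries, CeD+GR against control gave Ccl6 0.20, Cxcl16 0.10 and Cxcl10 0.56. With replicates 2 and 3 only, Cx3cl1 was at -0.89 in CeD+GR against CeD (limma unadjusted p = 0.0068, adjusted p = 0.798), and Cxcl12 at 0.89 there (unadjusted p = 0.032, adjusted p = 0.798) and at 1.25 in CeD+GR against control (limma unadjusted p = 0.0086, adjusted p = 0.765). Depth limits Ccl8, Ccr6 and Ccr8 most, which rest on few reads.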
